A study of Mus musculus with 6 samples.

Results

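The immunoglobulin variable (V) segments were examined in bulk RNA-seq of inguinal white adipose tissue (IWAT). Members were chosen by name (Ighv, Igkv or Iglv followed by a family number) and by their summed counts, with a minimum of 10 counts over the 6 libraries, which kept 197 of the 348 V segment rows among 55491 rows in all. They comprised 99 of 185 heavy chain segments, 95 of 160 kappa segments and all 3 lambda segments, and they fell into 37 V families. Because the summed counts chose the members, the presence of counts in them is a description and was not tested. All mice were 4-week-old C57BL/6J males on regular chow. The controls were 3 wild-type mice (Ebf2+/+), and the other 3 mice were heterozygous for a CRISPR/Cas9 knock-in of the nonsense variant p.E165X in Ebf2 (Ebf2 E165X/+), with 1 library per mouse. The knock-in is a germline allele, so it is carried by all cells of the mouse and not by adipocytes alone. The study's methods describe editing in hybrid zygotes of C57BL/6 and SJL parentage, and the V alleles of the 6 mice were not analysed here.

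V segments are the 5′ building blocks of antibody genes. During B cell development, the RAG recombinase joins 1 V segment to J (light chains) or to D and J (heavy chain), and the promoter of the rearranged V segment then drives transcription through to the constant region. V segment counts in a tissue therefore come mainly from B cells and plasma cells, and a clone that has expanded or that secretes antibody can contribute a large share of the transcripts of its own V segments. IWAT of the mouse surrounds the inguinal lymph node, and whether the node was removed is not given in the sources used here.

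The targeted gene and the composition of the libraries were examined first. Ebf2 had 4603, 4357 and 4611 counts in the wild-type libraries and 2635, 2863 and 2697 in the E165X/+ libraries, so the groups did not overlap. Its log2 fold change was -0.81 (SE 0.08), with an adjusted P of 0.0596 by the quasi-likelihood test of edgeR and 1.23e-13 by DESeq2. Total counts ranged from 106820505 to 135039488 per library and did not separate the genotypes (exact two-sided permutation test, P = 0.9, where the smallest P that 3 against 3 allows is 0.1). A pair of libraries stood apart. The third E165X/+ library had 4.27% of its counts in 8 skeletal muscle markers, of which Acta1 and Myh4 were the most abundant there, against 0.182%, 0.753% and 0.297% in wild-type and 0.333% and 0.0812% in the other E165X/+ libraries. The first wild-type library had the lowest sum of the 12 B cell markers, at 580 CPM, against 925 to 1089 CPM in the others. CPM is the count scaled to a common depth, with library sizes adjusted by TMM (trimmed mean of M values).

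The sequences of closely related segments are shown before their counts because the counts depend on telling them apart. Of the 197 members, 196 had a nearest other V segment among the 348 rows, with a median identity of 94.7% over the aligned part, and 35 members were at least 97% identical to it. Those 35 held 21.9% of all V counts, and their values are uncertain, since a read can fit several of them. How such reads were assigned cannot be seen in the deposited counts. The lines below give, 5′ to 3′, the last 60 bases of the annotated spliced transcript (GENCODE M21, GRCm38) for the segments that the results turn on, each beside its nearest relative. Capitals mark the bases that differ between the 2 segments of a pair, compared without gaps from the 3′ end.
Iglv1: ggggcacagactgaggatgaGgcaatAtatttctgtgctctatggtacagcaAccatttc
Iglv2: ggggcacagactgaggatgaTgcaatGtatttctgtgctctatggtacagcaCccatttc
Igkv1-110: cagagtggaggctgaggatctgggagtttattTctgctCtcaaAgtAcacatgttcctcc
Igkv1-117: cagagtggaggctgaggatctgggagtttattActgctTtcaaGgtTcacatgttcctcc
Igkv10-96: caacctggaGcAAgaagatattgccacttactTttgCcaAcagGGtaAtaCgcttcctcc
Igkv10-94: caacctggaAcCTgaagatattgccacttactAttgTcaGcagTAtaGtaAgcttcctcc
Ighv8-8: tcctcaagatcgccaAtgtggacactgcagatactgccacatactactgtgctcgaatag
Ighv8-11: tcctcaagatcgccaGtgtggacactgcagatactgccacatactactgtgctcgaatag
Ighv4-1: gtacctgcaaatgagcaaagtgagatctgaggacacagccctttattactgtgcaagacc
Ighv4-2: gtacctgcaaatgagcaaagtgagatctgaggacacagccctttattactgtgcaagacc
Ighv10-1: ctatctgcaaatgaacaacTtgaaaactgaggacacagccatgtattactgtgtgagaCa
Ighv10-3: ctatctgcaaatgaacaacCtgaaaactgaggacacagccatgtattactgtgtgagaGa
Igkv4-57: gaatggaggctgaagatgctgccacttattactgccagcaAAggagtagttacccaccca
Igkv4-55: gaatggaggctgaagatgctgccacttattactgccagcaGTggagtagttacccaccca
Ighv1-59: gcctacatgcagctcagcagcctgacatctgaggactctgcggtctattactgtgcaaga
Ighv1-69: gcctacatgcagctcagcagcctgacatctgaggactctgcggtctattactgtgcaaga
Ighv1-26: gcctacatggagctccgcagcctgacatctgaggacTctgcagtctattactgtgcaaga
Ighv1-18: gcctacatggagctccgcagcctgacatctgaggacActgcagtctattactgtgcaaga

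All of these bases lie in the exon that encodes the variable domain. Iglv1 (chr16:19085017-19085500, minus strand) and Iglv2 (chr16:19260401-19260859, minus strand) differed at 3 of the 60 bases. Igkv1-110 (chr6:68270485-68271267, plus strand) and Igkv1-117 (chr6:68121046-68121827, plus strand) differed at 4, whereas Igkv10-96 (chr6:68631963-68632442, minus strand) differed from Igkv10-94 at 10. Ighv8-8 (chr12:115294062-115294504, minus strand) differed from Ighv8-11 at a single base, but Ighv8-11 had only 9 counts over the 6 libraries, against 1623 for Ighv8-8. Ighv4-1 (chr12:113948282-113948796, minus strand) matched the pseudogene Ighv4-2 at all 60 bases, and Ighv4-2 had 17 counts against 1110 for Ighv4-1. Ighv10-1 (chr12:114479005-114479451, minus strand) and Igkv4-57 (chr6:69575975-69576500, minus strand) each differed from their nearest relative at 2 bases. Ighv1-59 (chr12:115335082-115335514, minus strand) matched Ighv1-69 at all 60 bases, with 329 and 210 counts. Ighv1-26 (chr12:114788372-114788805, minus strand) differed from Ighv1-18 at a single base, with 1096 and 498 counts. For these 2 pairs both segments had many counts, so the division of counts within each pair is uncertain. Iglv2 (1642 counts), Igkv1-117 (3529), Ighv10-3 (646) and Igkv4-55 (439) also had many counts. They differed from Iglv1, Igkv1-110, Ighv10-1 and Igkv4-57 at only 2 to 4 bases, so the division within those pairs is uncertain too.

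V segment counts were compared with all counts of each library. The members summed to 9398, 14222 and 12462 counts in the wild-type libraries and to 13201, 21985 and 23335 in the E165X/+ libraries. As a share of all counts these were 0.00752%, 0.0133% and 0.0101% in wild-type mice and 0.0119%, 0.0187% and 0.0173% in E165X/+ mice. The first E165X/+ library lay below the second wild-type library, so the groups overlapped. The mean summed CPM was 105 ± 28.6 (SD, n = 3) in wild-type mice and 157 ± 37.7 (SD, n = 3) in E165X/+ mice, a ratio of 1.5.

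Each of the 3 loci was then summed on its own. Heavy chain V segments, on chr12:113572927-116010093, summed to 29.4 ± 9.39 CPM in wild-type and 47.7 ± 12.3 CPM in E165X/+ mice (SD, n = 3 each). Kappa segments, on chr6:67555497-70704177, summed to 64.8 ± 16.1 and 93.6 ± 21.8 CPM, and lambda segments, on chr16:19085017-19260859, to 10.4 ± 3.26 and 16.1 ± 3.79 CPM (SD, n = 3 each). In each locus the lowest E165X/+ library was the first one, and it lay below the highest wild-type library. In bulk tissue, more B lineage cells and more immunoglobulin RNA per cell cannot be told apart.

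**Figure D1:**
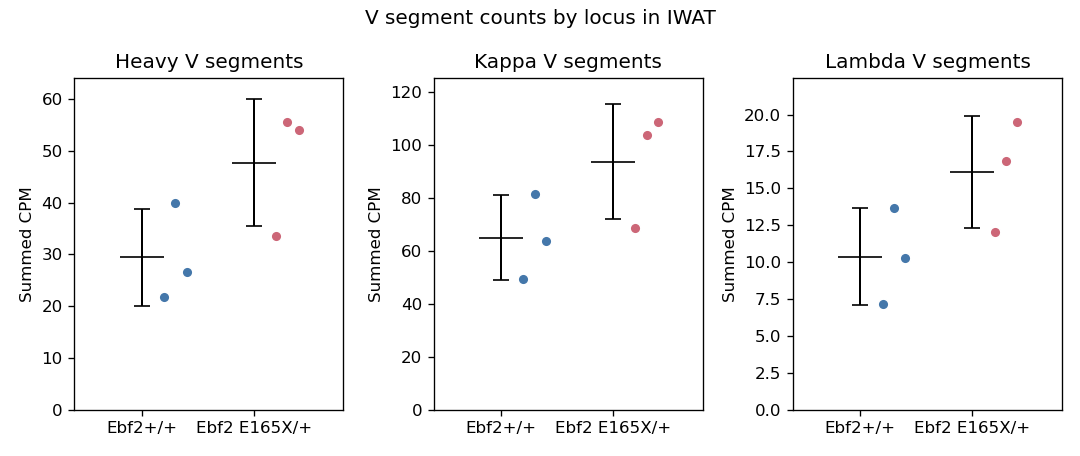
Summed CPM of the heavy, kappa and lambda V segments (vertical axes, each from 0) in the 3 Ebf2+/+ and 3 Ebf2 E165X/+ libraries. Points are libraries, horizontal bars are means and error bars are SD; in each panel the means differ while the lowest E165X/+ point lies below the highest wild-type point.

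The proportions of the 3 loci were stable from mouse to mouse. Kappa took 63.0%, 60.3% and 63.4% of V counts in wild-type libraries and 60.1%, 58.8% and 59.6% in E165X/+ libraries. The E165X/+ values all lay below the wild-type values, by a small margin. The heavy share ranged from 26.4% to 31.6% and the lambda share from 9.16% to 10.7% over the 6 libraries. The ratio of kappa to lambda V counts was 6.34 ± 0.480 in wild-type and 5.80 ± 0.311 in E165X/+ mice (SD, n = 3 each), with overlapping values.

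V counts were next set against the constant region of the same chain, which lies on the same mature transcript. Per 100 counts of Igkc, the kappa constant region, kappa V segments had 70.7, 62.2 and 64.8 counts in wild-type libraries and 66.8, 72.7 and 61.3 in E165X/+ libraries. The groups overlapped. Per kb of exon, the ratio of V to constant region counts ran from 0.871 to 1.04 for kappa over all 6 libraries. It was lower for the other loci, at 0.220 to 0.312 for heavy and 0.293 to 0.426 for lambda. For the heavy chain, 4.77, 5.38 and 4.35 V counts per 100 constant region counts were found in wild-type libraries and 4.85, 6.25 and 5.59 in E165X/+ libraries. These values also overlapped. Lambda V segments had 22.8 ± 2.53 and 26.9 ± 3.19 counts per 100 counts of Iglc1, Iglc2 and Iglc3 in wild-type and E165X/+ mice (SD, n = 3 each).

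V counts were also set against B cell markers. Per 100 CPM of the 12 B cell markers, V segments had 13.5, 14.6 and 10.9 CPM in wild-type libraries and 12.0, 16.2 and 18.5 CPM in E165X/+ libraries. The first E165X/+ library lay within the wild-type range and the other two above it. The ratio of the genotype means was 1.2 on this scale, compared with 1.5 for V CPM alone.

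Individual segments differed widely in level. The sums over the 6 libraries ran from 10 to 6610 counts with a median of 245, and 182 members had a count in every library. Exon lengths of the members lay between 338 and 501 bases, and the same 10 segments led by CPM and by CPM per kb. These 10 held 32.4% of all V counts, and 9 of them were light chain segments. Per kb, the highest mean level over the 6 libraries was that of Iglv1, at 23.4 CPM per kb. Igkv10-96 followed with 18.8, Igkv1-110 with 14.9 and Igkv1-117 with 12.1 CPM per kb. Ighv8-8 was the highest heavy chain segment, at 6.19 CPM per kb.

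Among the lambda segments, which are few in the mouse, Iglv1 had 572, 969 and 885 counts in wild-type libraries and 948, 1609 and 1627 in E165X/+ libraries. The second wild-type library lay above the first E165X/+ library, and the log2 fold change was 0.68 (SE 0.27, edgeR adjusted P = 0.783). Iglv1 took between 65.1% and 76.6% of the lambda V counts and was the leading lambda segment in all 6 libraries. Iglv2 had 145, 269 and 148 counts against 206, 227 and 647, where the third E165X/+ library was far above the rest. Iglv3 had 144, 205 and 238 counts against 239, 265 and 227, which was the narrowest range of the 3.

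The leading heavy and kappa segments, by contrast, changed from mouse to mouse. In the heavy locus the first wild-type library was led by Ighv1-59, with 7.30% of heavy V counts (95% Wilson interval 6.36% to 8.36%). The second was led by Ighv1-26, with 6.44% (5.74% to 7.23%), and the third by Ighv8-8, with 5.20% (4.49% to 6.01%). The E165X/+ libraries were led by Ighv5-4, with 6.32% (5.59% to 7.13%), by Ighv8-8, with 7.88% (7.27% to 8.54%), and by Ighv4-1, with 9.80% (9.12% to 10.5%). Thus only Ighv8-8 led the heavy locus in more than 1 library. These intervals cover counting error only, and not the assignment of reads between Ighv1-59 and Ighv1-69 or between Ighv1-26 and Ighv1-18.

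Kappa leaders took larger shares than heavy leaders in every library except the third E165X/+ library. In that library Ighv4-1 held 9.80% of heavy V counts. Igkv1-110 held 17.5% of the kappa V counts of the first wild-type library (95% Wilson interval 16.5% to 18.4%) and 9.51% (9.03% to 10.004%) of the third E165X/+ library, which it also led. Igkv10-96 led the second wild-type library with 7.83% (7.28% to 8.41%) and the second E165X/+ library with 15.9% (15.3% to 16.6%). Igkv17-127 led the third wild-type library with 8.73% (8.13% to 9.37%), and Igkv1-117 led the first E165X/+ library with 8.64% (8.04% to 9.28%). Igkv1-110 and Igkv10-96 thus each led in 1 mouse of either genotype. In counts, Igkv1-110 had 1033, 662 and 461 in wild-type and 372, 475 and 1323 in E165X/+ libraries, while its relative Igkv1-117 had 406, 435 and 647 against 685, 672 and 684. The excess of Igkv1-110 in the first wild-type and the third E165X/+ libraries was thus not shared by its closest relative.

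**Figure D2:**
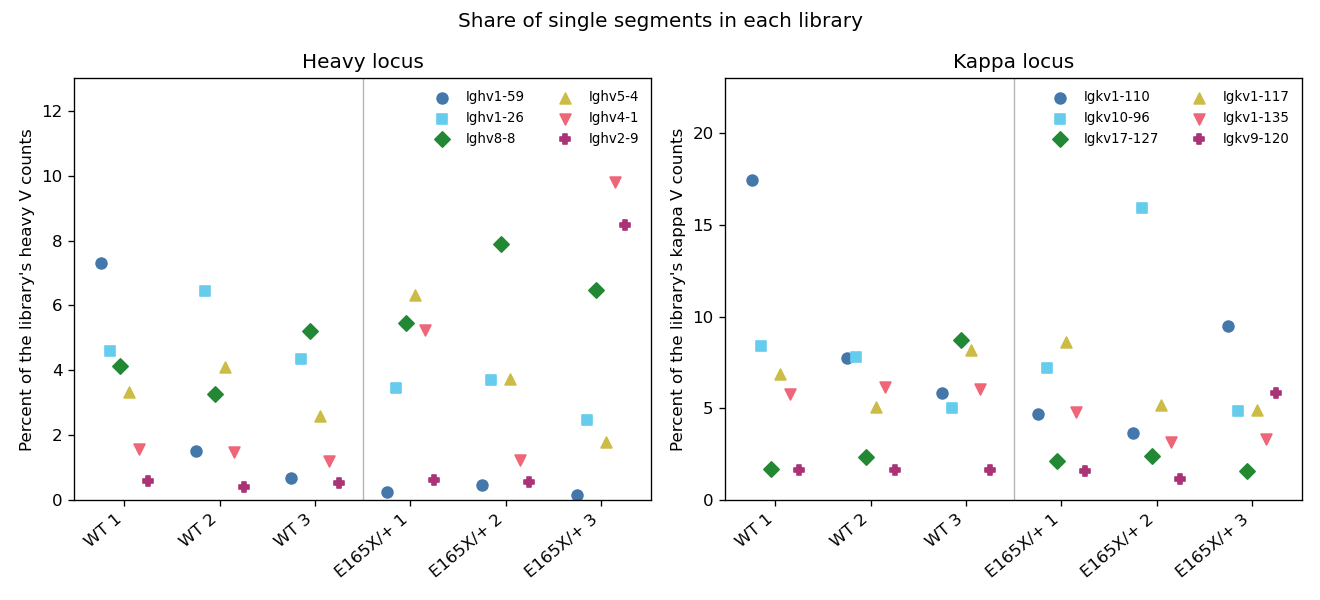
Percent of the heavy V counts (left) and kappa V counts (right) taken by 6 single segments each (vertical axes, linear from 0), in the 3 wild-type (WT) and 3 E165X/+ libraries on the horizontal axes. Each marker is 1 segment in 1 library; the segment at the top changes between libraries, from Ighv1-59 at 7.30% in WT 1 to Ighv4-1 at 9.80% in E165X/+ 3, and Igkv1-110 is at 17.5% in WT 1 but at 3.67% in E165X/+ 2.

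Segments concentrated in 1 mouse were counted among the 131 members with at least 100 counts. For 18 of them, more than 50% of the CPM summed over the 6 libraries came from a single library, and 10 of these 18 belonged to the third E165X/+ library. The most extreme was Igkv9-123, with 3, 9 and 16 counts in wild-type libraries and 2, 6 and 350 in E165X/+ libraries. Ighv2-9 had 15, 17 and 17 against 24, 39 and 587, and Igkv9-120 had 98, 141 and 129 against 125, 150 and 809. In all of these the third E165X/+ library was far above the other 5. The other 7 of that library were Ighv4-1, Ighv6-6, Igkv12-41, Igkv3-5, Igkv4-59, Igkv4-86 and Igkv5-45.

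The second E165X/+ library had 4 such segments. Igkv11-125 had 10, 12 and 9 counts in wild-type libraries and 8, 120 and 8 in E165X/+ libraries. Ighv5-6 had 18, 42 and 66 against 13, 409 and 173, and the others were Ighv1-12 and Ighv3-5. The first E165X/+ library had Ighv1-61 alone. In wild-type mice, Ighv1-59 was concentrated in the first library, Ighv1-62-2 and Ighv1-80 in the second, and none in the third. The minimum of 100 counts was applied to the sum over all libraries, so that some of the 18, such as Igkv9-123 and Igkv11-125, passed it only through the library in which they were high. The number per library is therefore a description and was not tested. Ighv1-62-2 was 99.7% identical to Ighv1-71, so that its counts cannot be assigned with certainty.

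The spread of the repertoire was summarised by the Shannon effective number, the number of equally abundant segments that would give the same diversity. Over all members it was 74.4, 86.6 and 86.4 in wild-type libraries and 90.5, 81.1 and 81.8 in E165X/+ libraries. The first wild-type library, in which Igkv1-110 dominated, was the lowest and the first E165X/+ library the highest, and the groups overlapped. For the heavy locus the values were 54.3, 58.3 and 61.3 against 57.3, 51.2 and 45.5, with the lowest in the third E165X/+ library. For kappa they were 35.6, 43.5 and 45.2 against 47.9, 40.9 and 45.3. The number of segments with a count, reduced to the V counts of the smallest library, was 189 to 194 in wild-type and 188 to 191 in E165X/+ libraries.

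Libraries were also compared pairwise by Bray-Curtis distance on segment shares, which is 0 for equal and 1 for disjoint repertoires. The 3 distances among wild-type libraries were 0.199 to 0.213, and the 3 among E165X/+ libraries were 0.240 to 0.336. The 9 distances between genotypes were 0.185 to 0.312. The smallest distance of all 15 was that between the third wild-type and the first E165X/+ library, and the largest that between the second and the third E165X/+ libraries. E165X/+ mice thus lay farther from each other than wild-type mice did, which was not tested. Without the third E165X/+ library a single distance, 0.240, was left within that genotype. All distances from the third E165X/+ library were at least 0.299.

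V families, which group segments by sequence similarity, were then summed. Family Ighv1 was the largest, with 49 members, and had 11.9, 22.5 and 13.7 CPM in wild-type libraries and 15.0, 26.8 and 17.7 CPM in E165X/+ libraries. Family Igkv4 followed, with 27 members and 5.30, 9.01 and 6.37 CPM against 9.39, 13.5 and 16.8 CPM. For Ighv1 the groups overlapped, whereas for Igkv4 every E165X/+ library lay above every wild-type library. Of the 37 families, 11 had summed CPM that lay higher in all E165X/+ than in all wild-type libraries and 0 lay lower. Among all single genes tested, 5.09% were separated upwards and 5.75% downwards in this way. The 11 were Ighv4, Ighv5, Ighv8, Ighv10, Ighv12, Ighv13, Igkv2, Igkv4, Igkv12, Igkv13 and Igkv14.

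Several of these sums rested on few segments. The Ighv4 family had 0.408, 0.588 and 0.363 CPM in wild-type libraries and 1.77, 0.697 and 5.30 CPM in E165X/+ libraries, almost all of it from Ighv4-1. Ighv5, with 9 members, had 2.27, 3.89 and 3.09 CPM against 4.78, 8.79 and 6.32 CPM, and 8 of the 9 members had a positive log2 fold change. Igkv12, with 6 members, had 1.71, 2.96 and 2.79 CPM against 5.17, 5.72 and 7.39 CPM, with 5 of the 6 positive. In contrast, Igkv1 had 15.3, 17.5 and 13.8 CPM against 13.6, 14.3 and 20.2 CPM, with overlapping groups and a ratio of means of 1.03. Igkv17, with 2 members, was the only family of more than 1 member with a negative median log2 fold change, at -0.02.

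**Figure D3:**
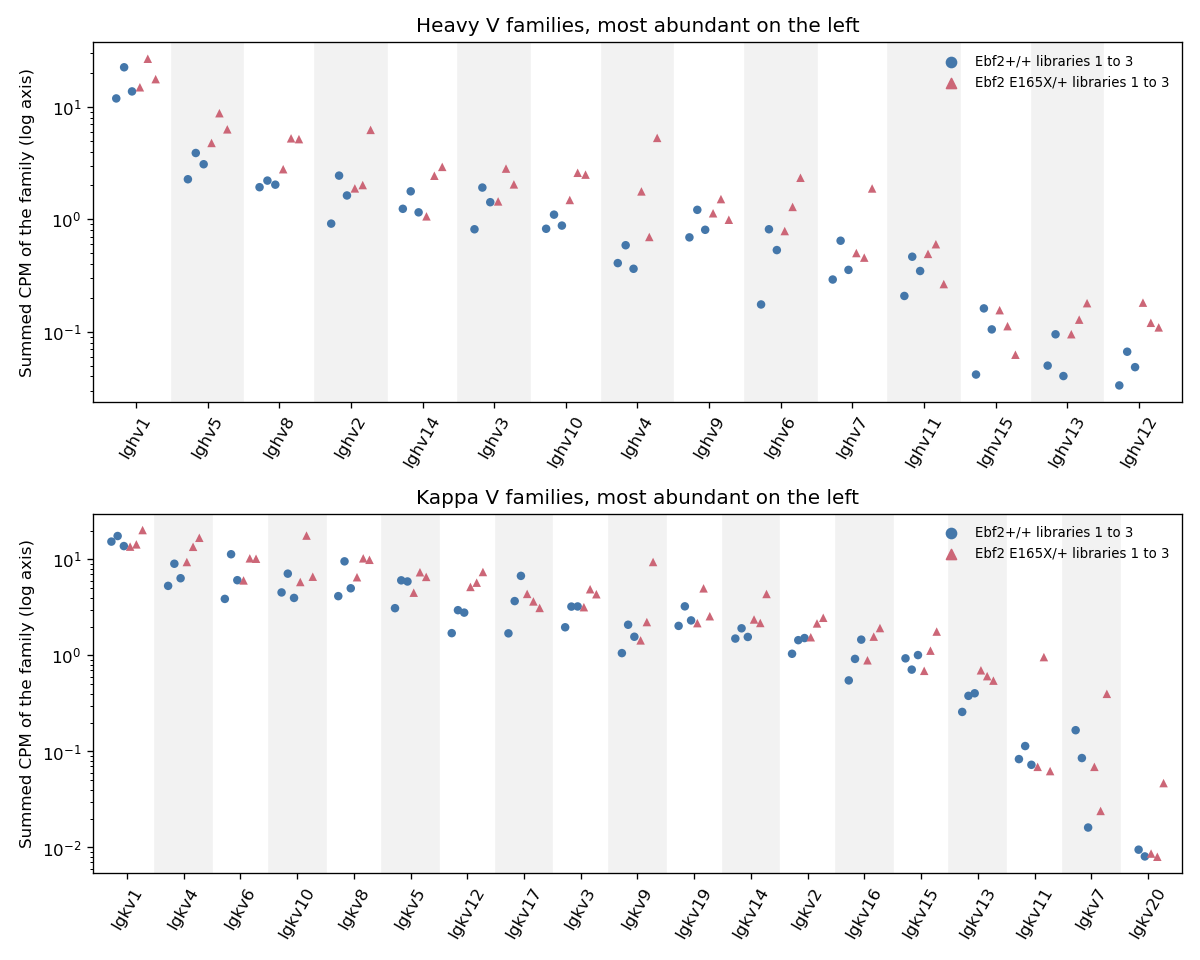
Summed CPM (log axes) of the 15 heavy and 19 kappa V families, ordered by mean level, with circles for the 3 Ebf2+/+ and triangles for the 3 Ebf2 E165X/+ libraries, each in library order from left to right. The triangles lie above all circles for 11 of the 37 families, the 3 lambda families not being drawn; Ighv4 at 5.30 CPM and Igkv9 at 9.40 CPM in the third E165X/+ library stand out, and the first wild-type library of Igkv20, at 0, is not drawn.

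Expressed as shares of their own locus, the families shifted unevenly. Ighv1 took 54.6%, 56.4% and 51.7% of heavy V counts in wild-type libraries and 44.6%, 48.2% and 32.7% in E165X/+ libraries, without overlap. Igkv1 took 31.1%, 21.5% and 21.6% of kappa V counts against 19.8%, 13.8% and 18.6%, also without overlap. Of the 34 heavy and kappa families, these 2 had lower shares in all E165X/+ libraries, and 6 had higher shares (Ighv5, Ighv6, Ighv10, Ighv12, Igkv4 and Igkv12). For single genes, 5.75% of all tested were separated downwards and 5.09% upwards, so 2 of 34 lower is near that background. Shares within a locus sum to a fixed total, so these counts are not independent. With the most abundant heavy segment of each library left out, the Ighv1 shares were 51.0%, 53.4% and 54.6% against 47.6%, 52.3% and 36.3%. These values overlapped. The segment left out belonged to Ighv1 in the first and the second wild-type libraries and in no E165X/+ library. Its removal thus lowered those wild-type shares and raised the E165X/+ shares by construction. The overlap therefore does not show what the separation rested on.

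The position of the segments was also examined. Ighv1 segments lie mainly in the part of the heavy locus far from the J segments. The 93 of 185 heavy rows nearer to Ighj1, of which 53 were members, supplied 42.9%, 42.7% and 46.5% of heavy V counts in wild-type libraries and 51.8%, 51.4% and 60.6% in E165X/+ libraries. The groups did not overlap. With the most abundant segment of each library left out, the values were 46.3%, 45.6% and 49.0% against 48.5%, 55.8% and 56.3%. These values overlapped. The segment left out lay in the farther part in all wild-type libraries and in the second E165X/+ library. It lay in the nearer part in the first and the third E165X/+ libraries. Its removal thus raised the former values and lowered the latter by construction, so this overlap does not show what the separation rested on. For kappa, the 80 of 160 rows nearer to Igkj1, of which 50 were members, supplied 35.9% to 48.0% in wild-type and 43.5% to 45.8% in E165X/+ libraries. Kappa segments occur in both orientations, so that some join J by deletion and others by inversion. Of 75 kappa rows on the strand of Igkj1, 35 were members, against 60 of 85 on the opposite strand, and segments on the strand of Igkj1 supplied 34.5% to 51.3% of kappa V counts over the 6 libraries.

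Differential expression between the genotypes was tested with edgeR over all 32664 genes with a count, of which 3 (0.00918%) were called at an adjusted P below 0.05 and a fold above 1.5. Of the 197 V segments, 0 were called, and their adjusted P values lay between 0.742 and 0.995. The log2 fold change was positive for 151 members (76.6%), against 52.1% of all genes tested. An unadjusted P below 0.05 was found for 33 members with higher counts in E165X/+ mice (16.8%, against 1.68% of all genes) and for 2 with lower counts (1.02%, against 3.09% of all genes). The median log2 fold change was 0.54 over the members, compared with 0.01 over all genes. By locus the median was 0.52 for heavy, 0.57 for kappa and 0.68 for lambda segments. V segments share their cells and their libraries, so the members do not vary independently, and their shared direction is that of the summed counts above.

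The lean towards E165X/+ mice depended on the libraries. Without the first wild-type library, which had the fewest B cell marker counts, 136 members were positive and the median log2 fold change was 0.34. In that fit 14 rather than 33 members had an unadjusted P below 0.05 in the higher direction, against 329 of 32182 genes. Without the first E165X/+ library, 158 were positive, the median was 0.59 and 53 passed in that direction, against 609 of 32173 genes. Without the second wild-type library, 169 were positive and 28 negative, and the median was 0.81. Without the third wild-type library the median was 0.59, with 148 positive. Without the second E165X/+ library 138 were positive and the median was 0.37, and without the third, in which muscle markers were high, 144 were positive and the median was 0.44. Over the 6 fits the median thus ran from 0.34 to 0.81. No V segment was called by edgeR in any of the 6 fits that left out a library.

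DESeq2 called 3 of the 67 members to which it gave an adjusted P (4.48%), compared with 98 of 16078 genes (0.61%). The 3 were Ighv8-8, Ighv10-1 and Igkv4-57, all higher in E165X/+ mice, and the last 2 were already known from earlier results of these data. Ighv8-8 had 108, 137 and 171 counts in wild-type libraries and 212, 548 and 447 in E165X/+ libraries. It was higher in each E165X/+ than in each wild-type library, with a log2 fold change of 1.44 (SE 0.34) and adjusted P values of 0.783 by edgeR and 0.00256 by DESeq2. Ighv10-1 had 60, 44 and 46 counts against 100, 146 and 98, with a log2 fold change of 1.12 (SE 0.26) and adjusted P values of 0.742 (edgeR) and 0.028 (DESeq2). Igkv4-57 had 29, 26 and 61 counts against 93, 147 and 96, with a log2 fold change of 1.47 (SE 0.36) and adjusted P values of 0.783 (edgeR) and 0.0199 (DESeq2). For all 3 the groups were separate, and no single library held more than 33.0% of the summed CPM.

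Some other segments with a low unadjusted P, such as Ighv4-1, owed more to a single mouse. Ighv4-1 had 41, 62 and 40 counts in wild-type libraries and 203, 86 and 678 in E165X/+ libraries. Its log2 fold change of 2.63 (edgeR adjusted P = 0.783) fell to 1.55 without the third E165X/+ library, which held 58.9% of its summed CPM. Ighv2-7 had 1, 1 and 8 counts against 27, 12 and 43, so that all E165X/+ libraries were higher, at low depth. Among family leaders, Igkv12-44 had 65, 124 and 146 counts against 404, 183 and 282, and Igkv14-111 had 117, 95 and 113 against 166, 157 and 441. Both were higher in each E165X/+ library, with edgeR adjusted P values of 0.783 each. Igkv10-96, the second most abundant segment per kb, had 497, 671 and 397 counts against 571, 2059 and 678, which overlapped.

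The other 46 members had a negative log2 fold change. Igkv4-92 had 6, 7 and 10 counts in wild-type libraries and 2, 2 and 3 in E165X/+ libraries, and it was the only member whose CPM was lower in all E165X/+ libraries. Such separation downwards was found for 0.508% of members, against 5.75% of all genes, and separation upwards for 29 members, or 14.7%, against 5.09% of all genes. Ighv1-59 had 191, 64 and 22 counts against 10, 32 and 10, with a log2 fold change of -2.49 (edgeR adjusted P = 0.783), which was -1.49 without the first wild-type library. Ighv1-62-2 had 6, 140 and 41 against 17, 8 and 33, and its log2 fold change of -1.85 shrank to -0.29 without the second wild-type library. For Ighv1-62-2 the second and the third wild-type libraries were above all E165X/+ libraries and the first was not. For Ighv1-59 the first and the second wild-type libraries were above all E165X/+ libraries and the third was not. Igkv1-135 (log2 fold change -0.21), Igkv5-39 (-0.38), Igkv17-127 (-0.55) and Igkv6-17 (-0.16) were abundant kappa segments with negative values, and none of them passed the test.

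**Figure D4:**
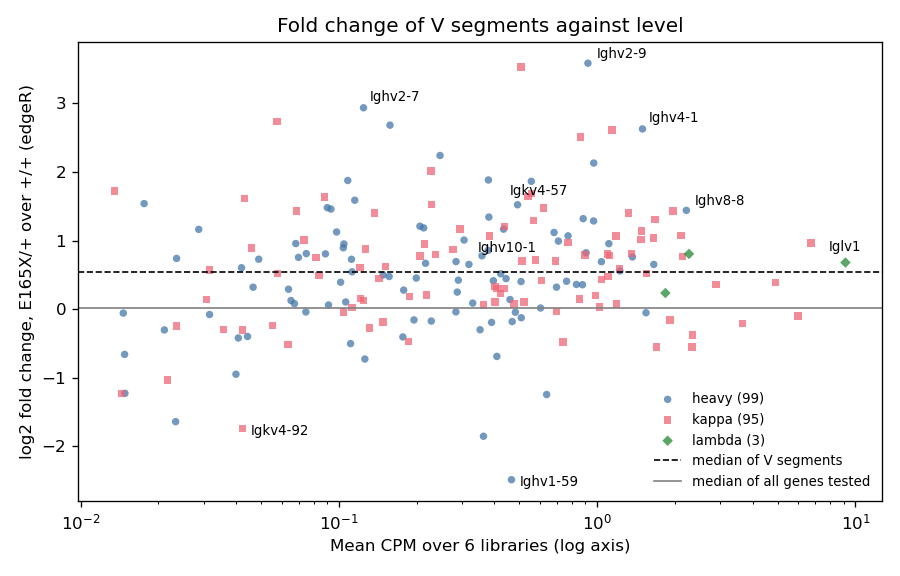
Log2 fold change of each of the 197 V segments (E165X/+ over +/+, edgeR, vertical axis) against its mean CPM over the 6 libraries (horizontal log axis), coloured by locus. The dashed line is the median of the V segments, 0.54, and the grey line that of all genes tested, 0.01; 151 of the 197 points lie above 0.

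Genes of the B lineage were described alongside the segments, from lists of companion genes. All 12 B cell markers had positive log2 fold changes, with a median of 0.29, and 6 of the 12 were separated upwards (against 5.09% of all genes tested), but 0 were called by edgeR and 0 had an unadjusted P below 0.05. Cd22, an inhibitory coreceptor of the B cell antigen receptor and the most abundant of the list, had 8660, 12660 and 14066 counts in wild-type and 13648, 16645 and 15161 in E165X/+ libraries. The first wild-type library was the lowest, the second E165X/+ library the highest, and the counts overlapped. The summed B cell markers made up 0.0558%, 0.0914% and 0.0925% of counts against 0.0993%, 0.116% and 0.0933%, so the groups were separate by a small margin. The part of B cell content in the V segment values was not tested.

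The 12 immunoglobulin constant genes were likewise all positive, with a median log2 fold change of 0.47 and 0 called. Ighm, the mu constant region, had 322, 527 and 416 CPM in wild-type and 487, 635 and 606 CPM in E165X/+ libraries, and Ighd, the delta constant region of naive B cells, had 113, 181 and 183 against 182, 190 and 197 CPM. Both overlapped between genotypes. The class-switched constant regions were far more variable. Ighg2b had 743, 1483 and 817 counts against 679, 1504 and 14411, and Ighg2c had 163, 760 and 138 against 415, 5711 and 3919. The switched isotypes together made up 4.73%, 4.49% and 1.88% of heavy constant counts in wild-type libraries and 3.25%, 7.38% and 16.9% in E165X/+ libraries. The third E165X/+ library, which had the lowest heavy effective number, was thus also the highest in switched isotypes.

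**Figure D5:**
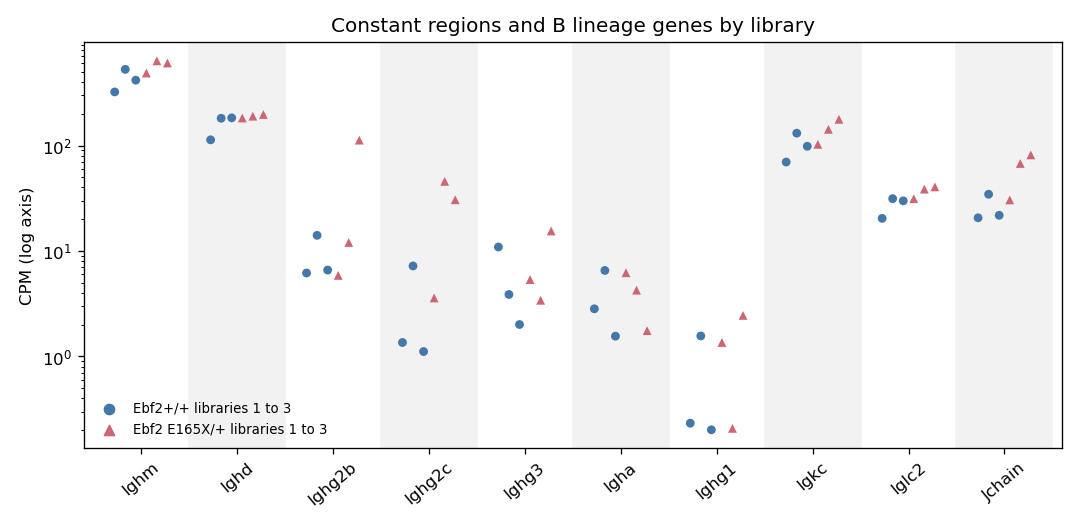
CPM (log axis) of 9 immunoglobulin constant genes and Jchain, with circles for the 3 Ebf2+/+ and triangles for the 3 Ebf2 E165X/+ libraries in library order. Ighm runs from 322 to 635 CPM and Ighd from 113 to 197 CPM, whereas Ighg2b reaches 113 CPM in the third E165X/+ library against 5.87 to 14.1 CPM in the other 5, and Jchain is high in the second and the third E165X/+ libraries.

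Plasma cell and germinal centre genes were uneven between mice. Jchain, which links secreted IgM and IgA, had 2480, 3637 and 2702 counts in wild-type libraries and 3528, 8439 and 10437 in E165X/+ libraries. The first E165X/+ library lay within the wild-type range and the other two lay well above it (edgeR adjusted P = 0.783). Of the 12 plasma cell markers 9 were positive and 3 negative, and Prdm1, the regulator of plasma cell differentiation, had 852, 794 and 890 counts against 777, 647 and 615. All 6 germinal centre genes were positive, with a median of 0.41 and 0 called. These lists were chosen with earlier results known, and the share of each cell type was not measured.

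Genes of other cells were read in the same way. The 6 markers of lymph node stroma and high endothelium were all positive, with a median log2 fold change of 0.22 and summed CPM of 509, 526 and 514 against 645, 611 and 521. Their most abundant gene was Glycam1, a mucin of high endothelial venules, with 308, 251 and 253 CPM against 333, 319 and 224 CPM. The groups overlapped, and node markers were present in every library. Of the 8 T cell markers 7 were positive, with a median of 0.21, and Trac was negative. Of the 6 adipocyte markers 5 were negative, with a median of -0.27. The summed adipocyte markers were lowest in the third E165X/+ library, at 6927 CPM against 9218 to 12284 CPM in the others, and their part in the V values was not tested.

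The machinery of V(D)J recombination was found at low counts. Rag1, a subunit of the recombinase, had 33, 65 and 141 counts in wild-type and 73, 146 and 117 in E165X/+ libraries, and Igll1, a surrogate light chain component of pre-B cells, had 2, 20 and 34 against 28, 62 and 28. The groups overlapped for both, and the first wild-type library was the lowest. Rag2, the other subunit of the recombinase, had 1, 9 and 9 counts against 12, 18 and 22, so that its groups were separate at low depth (log2 fold change 1.33, edgeR adjusted P = 0.783). It was the only gene of the list with separate groups, where 5.09% of all genes tested were separated upwards. Of the 7 genes of this list 6 were positive, with a median log2 fold change of 0.51, and 0 were called by edgeR.

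Rows outside the members were accounted for as well. Of the 151 V rows under the minimum, 104 had 0 counts, and the 151 together had 190 counts. Of the 130 V rows annotated as pseudogenes 6 were members, against 191 of 218 rows of functional biotype. These 6 (Ighv1-2, Ighv1-70, Ighv4-2, Igkv4-60, Igkv4-73 and Igkv4-77) had sums of 15 to 54 counts and held 0.129% to 0.309% of V counts per library. The segments exactly at the minimum of 10 counts were Ighv2-4, Ighv3-3, Ighv3-4, Igkv20-101-2 and Igkv6-29, and those just under it, at 9 counts, were Ighv1-38, Ighv1-83 and Ighv8-11. Members at these sums were tested with the others, at very low depth. All 19 D and 14 J rows had 0 counts. They are 10 to 29 and 38 to 100 bases long.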

How the data were processed

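IWAT libraries from 3 Ebf2+/+ and 3 Ebf2 E165X/+ mice were analysed. The authors deposited expected counts per gene in 1 table, made, per the labels' processing notes, with cutadapt 4.8, STAR 2.7.8a and RSEM 1.3.3 on GRCm38. All 332946 deposited values were whole numbers, so how reads shared by similar segments were assigned cannot be seen. The labels name an NEB library kit and the study's supplement a 3′ mRNA kit, which bears on V relative to constant counts. All genes with counts were tested by edgeR 4.0.16 (TMM, quasi-likelihood, Benjamini-Hochberg over 32664 genes), with DESeq2 1.42.0 as an alternative, which gave no adjusted P for 130 of the 197 members. Scripts were tested on simulated data. Sequences, positions, exon lengths and identities (blastn 2.17.0, at least 200 aligned bases) came from GENCODE M21, which matched all 197 members. Named segments were the lambda segments, the 10 highest by mean CPM, leaders of families with 3 or more members and of loci per library, the 5 smallest P values in each direction, and Igkv4-57 and Ighv10-1. Members and lists were chosen with earlier results of these data known. P values are two-sided, with 3 mice per group. Each SE was derived from the edgeR test, as the absolute log2 fold change divided by the square root of the quasi-likelihood F statistic. Depth was 106820505 to 135039488 counts per library.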

Additional observations from a re-analysis of the deposited data

How the results depend on the processing

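The call of 0 V segments by edgeR held under each library left out, DESeq2 size factors, the filter on low counts, and the other member minimums, whereas DESeq2 called 3. Segments with a negative log2 fold change numbered 46, against 28 under the low-count filter of edgeR, 29 with a member minimum of 50 counts, 74 with a minimum of 1 count and 28 to 61 with a library left out. Whether same-numbered mice were paired is not given in the sources used here. Deviations from the genotype mean correlated at 0.153, -0.278 and -0.162 between same-numbered libraries. With so few libraries, centred within each genotype, these values cannot decide it. With the replicate block 157 segments were positive, 40 negative and 0 called, with a median of 0.54. Same-numbered libraries did not correlate best with each other throughout. The ratio of E165X/+ to wild-type means for kappa V per 100 Igkc counts was 1.02 and ran from 0.972 to 1.06 with a library left out, crossing 1. That for the Shannon effective number was 1.02 and ran from 0.977 to 1.05, also crossing 1. The effective number was 82.4 in wild-type and 84.5 in E165X/+ mice, 44.3 and 47.6 by Simpson's index, and 89.9 and 91.5 with the most abundant segment of each library left out, an effect of how these measures weight abundant segments. The ratio of V shares stayed between 1.37 and 1.82 with a library left out. Leaving out the leading heavy segments, libraries for the position and Ighv1 shares, and scaling per kb were added after seeing the data. Depth limits segments with few counts: 118 of 197 had at least 10 counts in every library.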

Other observations

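The germline V segments were searched for TATTACTGT, letters that end in a cysteine codon common near the 3′ end of V exons, on the coding strand only, within the last 60 bases of the transcript. It was present in 57.6% of 99 heavy and 41.1% of 95 kappa members and in 0 of the 3 lambda members. Over all loci it was present in 48.7% of members, against 32.5% of the 151 rows under the minimum, and in 47.7% of functional rows against 31.5% of pseudogene rows. A match is a description of these letters only, since other codons spell the same residues.

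The library in which each segment was highest was counted as a description. The second and the third E165X/+ libraries were highest for 62 and 55 of the 197 members and the first for 24, while the wild-type libraries were highest for 4, 38 and 14. The first wild-type library was lowest for 111 members.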
